A study of Arabidopsis thaliana with 6 samples.

Results

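RNA recovered with an anti-HA antibody (RIP) was compared with RNA recovered with IgG (Mock) from the same kind of *Arabidopsis thaliana* seedlings. The question was which RNAs that can be seen with IgG differ between the antibodies. The features compared were those above 0 in both Mock libraries, or with at least 1 FPKM (fragments per kilobase and 1e+06 reads) in both RIP libraries. This rule took 14603 of the 39351 features of the table. Of them, 1511 had reads in both Mock libraries and are called detected with IgG, 18 of these through the Mock criterion alone. The other 13092 entered through RIP alone, and 8511 of them were at 0 in both Mock libraries.

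All libraries came from an *nsra* mutant that carried pNSRa:NSRa-HA, that is the nuclear speckle RNA binding protein NSRa with an HA tag, driven by its own promoter. Whole seedlings were given the synthetic auxin NAA for 24 h and irradiated with UV to crosslink protein and RNA. The labels give the seedling age as 10, 14 or 15 days and the NAA dose as 100 nM or 1 µM in different places. The 2 RIP libraries were made with the HA-7 monoclonal antibody, the 2 Mock libraries with anti mouse IgG, and 2 Input libraries hold RNA of the lysate. Genotype and treatment were thus the same in every group, and plants without the tag were not analysed here. The labels say only that the pull-down was done in duplicate, so that p-values measure the spread between these libraries, which may be technical.

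An immunoprecipitation with IgG recovers what sticks to beads, tubes and antibody without recognition of the tag, and abundant structured RNAs are common in such controls. Spliceosomal snRNAs carry out splicing in the nucleus, where U1 pairs with the 5′ splice site. The snoRNAs guide the processing and modification of ribosomal RNA, and 7SL RNA is the scaffold of the signal recognition particle that directs nascent proteins to the endoplasmic reticulum.

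The Mock libraries were shallow, with 197923 and 154149 reads against 1599136 and 977230 in RIP, and 1 Mock read was worth 5.05 and 6.49 CPM (reads per 1e+06 reads of the library). CPM and FPKM are shares within a library, and the amount of RNA that each antibody recovered is not known here. The paper states that its mock eluate yielded no detectable RNA. Higher in Mock therefore means a larger share of the Mock reads, not more RNA recovered with IgG. Features detected with IgG took 89.2% and 75.7% of the Mock reads and 48.8% and 55.5% of the RIP reads. NSRa itself (AT1G76940) had 54 and 14 Mock reads and 349 and 155 RIP reads, or 273 and 90.8 CPM against 218 and 159 CPM, and its groups overlapped. Leaf markers such as RBCS1A were detected with IgG, while the root markers SCR, SHR and EIR1 had RIP reads and no Mock read. The root marker MYB66 was at 0 in all 4 pull-down libraries, and of the flower and seed markers AG, AP3 and OLEO1 were at 0 there too. The seed storage gene CRU3 had 20 and 7 RIP reads while it was at 0 in both Input libraries. The seed marker CRA1 had 23 and 6 RIP reads and the flower marker PI had 0 and 3, both without a Mock read.

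Most features detected with IgG that passed the test between the antibodies were structural RNAs or shared sequence with them, and the sequences of the main ones are shown first. They were read from RefSeq (TAIR10.1) on the strand of the gene, and coordinates are counted from 1. The U1 snRNA gene U1.5 (chr1:2538074-2538238, minus strand) and a stretch of the lncRNA AT5G07745 (chr5:20996761-20996925, plus strand) aligned at 93.9% identity. They are shown because RNAs with U1 sequence held the most RIP reads and lay higher with anti-HA in the values as deposited, and capitals mark the bases that pair with a 5′ splice site.
U1.5: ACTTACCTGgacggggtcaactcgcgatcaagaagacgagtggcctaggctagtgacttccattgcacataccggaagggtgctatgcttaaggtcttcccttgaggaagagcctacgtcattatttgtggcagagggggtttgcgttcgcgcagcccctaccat
AT5G07745: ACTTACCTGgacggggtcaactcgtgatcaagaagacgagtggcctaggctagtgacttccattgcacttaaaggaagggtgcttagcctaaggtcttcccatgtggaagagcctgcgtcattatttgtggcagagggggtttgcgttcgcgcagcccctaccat
The 9 bases ACTTACCTG, searched on the gene's strand only, were found in 82 of 14560 features with an exon sequence (0.563%) and in 18 of 1508 detected with IgG (1.19%). Of these 18, 7 lay above Mock in both RIP libraries and 3 below. Over all features detected with IgG 26.1% lay above and 17.2% below, but the run comes from U1 sequences shown for their RIP values. These counts are therefore no test of the run. Of the 7, 5 are genes with U1 sequence (U1.5, U1.4, AT4G23420, AT5G07325 and AT5G07745), and the others are ATNTT2 and GTA2.

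The next 4 stretches stand for the RNAs that were higher with IgG. AT1G05163 (chr1:5297912-5298061, minus strand), AT4G04595 (chr4:1476404-1476553, plus strand) and AT4G04565 (chr4:1472846-1472995, plus strand) aligned with the genome span of the annotated 7SL gene AT7SL-1 (AT4G02970). The span was read without regard to the strand of AT7SL-1, so sense and antisense matches were not told apart. Capitals mark the longest run that these stretches share with AT2G31141. The fourth comes from the end of the RR3 exon (chr2:17224694-17224720, plus strand), beyond the last coding base at position 17223536. It is the longest run RR3 shares with AT1G05163. On the opposite strand, the lncRNA gene AT2G09250 (chr2:17224503-17224801) covers this run.
AT1G05163: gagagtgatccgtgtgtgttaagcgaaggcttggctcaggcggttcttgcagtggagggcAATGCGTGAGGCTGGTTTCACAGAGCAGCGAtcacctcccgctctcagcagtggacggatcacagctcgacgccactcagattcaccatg
AT4G04595: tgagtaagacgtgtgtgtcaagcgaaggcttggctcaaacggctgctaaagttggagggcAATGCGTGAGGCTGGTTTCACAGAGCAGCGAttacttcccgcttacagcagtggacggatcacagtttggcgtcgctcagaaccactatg
AT4G04565: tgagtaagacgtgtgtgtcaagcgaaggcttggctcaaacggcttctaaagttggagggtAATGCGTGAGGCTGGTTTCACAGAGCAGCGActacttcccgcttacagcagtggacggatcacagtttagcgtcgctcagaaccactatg
RR3: GCGTGAGGCTGGTTTCACAGAGCAGCG
AT1G05163, AT4G04595, AT4G04565 and AT2G31141 were chosen because they were called lower in RIP, and the run of 31 bases was found in no other of the 14560 sequences. The RR3 run of 27 bases lies within it and was found in RR3, in the same 4 genes and in AT1G49700. Only AT1G49700 was not used to define the runs, and its values are given below.

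Of the 1511 features detected with IgG, 395 (26.1%) had both RIP values above both Mock values, 260 (17.2%) had both below, and 856 (56.7%) overlapped. Among all 14954 features tested, 71.7% lay above and 1.74% below, but those at 0 in both Mock libraries could only lie above. An exact permutation test of 2 libraries against 2 cannot give a p under 0.333, so that these counts are a description. In bulk libraries of whole seedlings, a smaller number of cells of a type and less RNA per cell cannot be told apart. The median log2 ratio of mean CPM over the 1511 features was 0.04, but −0.23 with median-of-ratios size factors and −0.55 when each library was scaled to its reads outside its 10 largest features. The counts moved with it, to 317 above and 349 below under the size factors and to 238 above and 439 below outside the 10 largest.

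**Figure D1:**
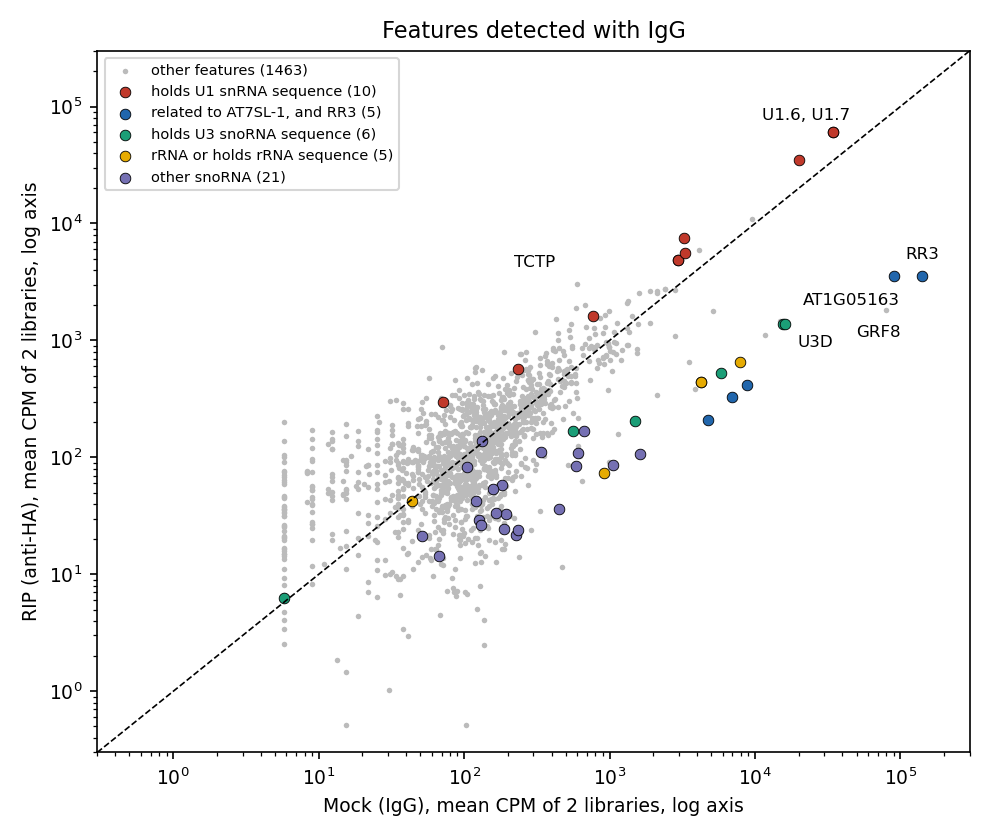
Mean CPM of the 2 RIP libraries (anti-HA, vertical log axis) against the mean CPM of the 2 Mock libraries (IgG, horizontal log axis) for features detected with IgG, each point 1 feature and the dashed line equal levels. RNAs with U1 sequence (red) lie above the line as deposited, although 1 of 6 U1 genes was above Mock when scaled outside the 10 largest features. RR3 and the features that align with AT7SL-1 (blue), and those with U3 or rRNA sequence, mostly lie well below the line. ELF5A-1, at 0 in both RIP libraries, is not drawn.

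The reads behind the 2 directions differed. In the lower of their 2 Mock libraries, 195 of the 395 features above Mock (49.4%) had 3 reads or fewer, against 7 of the 260 below (2.69%). With at least 10 reads in each Mock library, 751 features remained, 153 above and 218 below. The Mock libraries also spread more, since a feature detected with IgG differed between them by a median of 2.61-fold and between the RIP libraries by 1.31-fold. Across the 1511 features, the rank correlation was 0.928 between the RIP libraries, 0.385 between the Mock libraries, 0.658 between RIP replicate 1 and Mock replicate 2, and 0.435 between RIP replicate 1 and Mock replicate 1. These values are over features, which share their libraries and depth, and describe the libraries only.

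**Figure D2:**
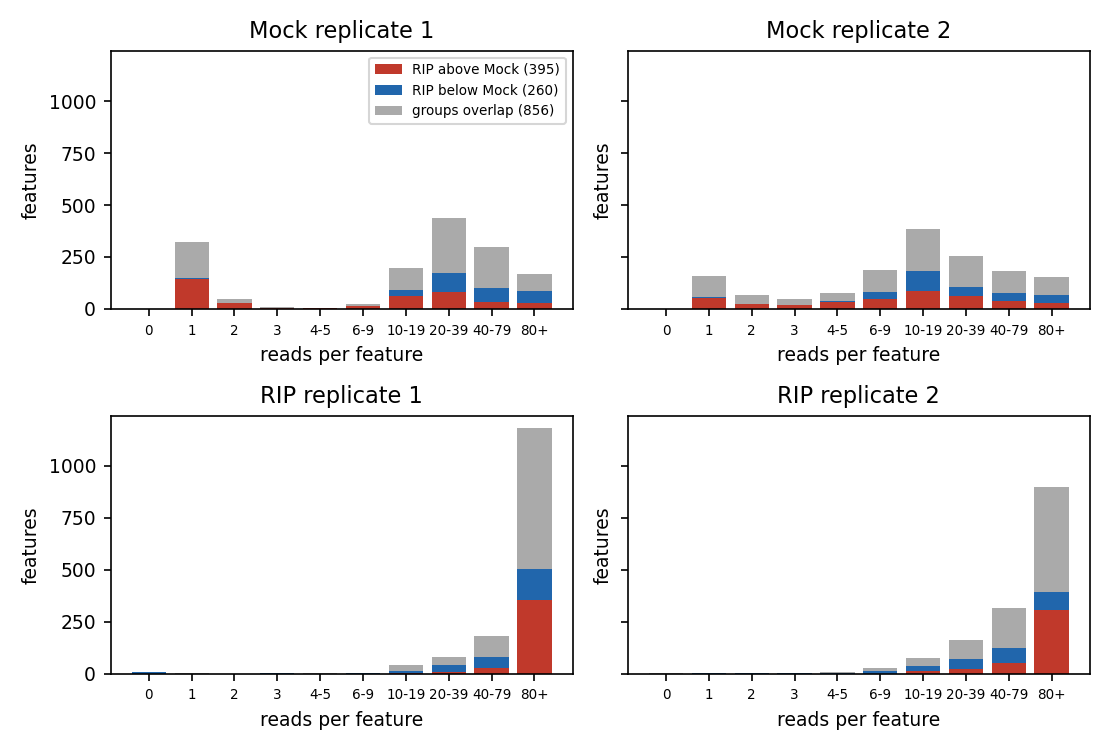
Number of features (vertical axis) by reads per feature (horizontal axis) in each pull-down library, for the 1511 features detected with IgG, coloured by whether both RIP values lie above Mock, below it or overlap it. In Mock replicate 1, 321 features had a single read, and the median was 26 reads against 194 in RIP replicate 1.

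In the limma fit of log2(FPKM + 1), 18 of 14954 features tested (0.12%) were lower in RIP and 5480 (36.6%) higher, at an adjusted p (Benjamini-Hochberg) under 0.01 and a log2 fold change of at least 1. All 18 lower features were detected with IgG, whereas 1 higher feature was, and 5476 of the 5480 were at 0 in both Mock libraries. A feature at 0 in both Mock libraries passed the filter only through RIP, so that it could only come out higher. The direction of these calls was thus fixed in advance, and the 36.6% is no measure of recovery by anti-HA. The same holds for counts called higher by kind of RNA below. At an unadjusted p under 0.05, 54 of the 1511 were lower and 49 higher. The 18 and the single higher feature were named here after their values had been seen. No feature was called by limma in either direction with a pseudocount of 10 FPKM, with voom on the recovered reads or with log2(CPM + 20), where at an unadjusted p under 0.05 there were 4178, 4898 and 3907 higher and 67, 67 and 64 lower. Among features detected with IgG the count of 18 was 106 without Mock replicate 1, 280 without Mock replicate 2, 4 without RIP replicate 1 and 3 without RIP replicate 2.

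Among the 18 features called lower with anti-HA, RR3 and the 4 features that align with AT7SL-1 had the largest folds. RR3 (AT2G41310) encodes a type-A response regulator of cytokinin signalling. It held 39484 and 12581 Mock reads, 19.9% and 8.16% of these libraries, and 4189 and 4421 RIP reads, 0.262% and 0.452%. Every Mock value lay above every RIP value, and the mean CPM was 39.4-fold higher in Mock (limma log2 fold change −5.21 ± 0.60 SE, adjusted p = 0.00737). Its exon sequence holds 2370 bases, of which 329 aligned at 71.4% identity with AT1G05163, and the start of the run printed above is base 2184. The table gives 1 value per gene, so that the position of the reads within RR3 was not analysed here.

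AT1G05163, an lncRNA gene, held 23650 and 9638 Mock reads (119491 and 62524 CPM) and 6093 and 3260 RIP reads (3810.2 and 3336 CPM). It was 25.5-fold higher in Mock (log2 fold change −4.60 ± 0.38, limma adjusted p = 0.00404) and aligned with AT7SL-1 at 80.6% identity over 304 bases. The gene overlaps AT1G15405 on the same strand, and their reads cannot be told apart. AT2G31141 had 10646 and 7058 CPM in Mock against 340.2 and 484 CPM in RIP, AT4G04595 had 7548 and 6403 against 313 and 343 CPM, and AT4G04565 had 5841 and 3646 against 246 and 173 CPM. In each of the 3 the Mock mean was 21.3- to 22.7-fold higher, with no overlap between the groups. The 4 features took 14.4% and 7.96% of the Mock reads and 0.471% and 0.434% of the RIP reads. AT1G49700, which encodes a protein of unknown function and holds the RR3 run, had 39 and 59 Mock reads and 49 and 17 RIP reads (197 and 383 against 30.6 and 17.4 CPM), and was not called (limma adjusted p = 0.0781).

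GRF8 (AT4G24150), a transcription factor of the growth-regulating factor family, held 14463 and 13190 Mock reads and 1165 and 2830 RIP reads. These were 73074 and 85567 CPM in Mock against 729 and 2896 CPM in RIP. The Mock mean was 43.8-fold higher, the log2 fold change was −5.76 ± 0.79, and the limma adjusted p of 0.0111 missed the threshold. In blastn on the gene strands, no alignment was found between GRF8 and the 18 features. RR3, AT1G05163 and GRF8 thus made up the 3 largest features of Mock replicate 1, at 39.2% of its reads, and also of Mock replicate 2, at 22.97%.

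**Figure D3:**
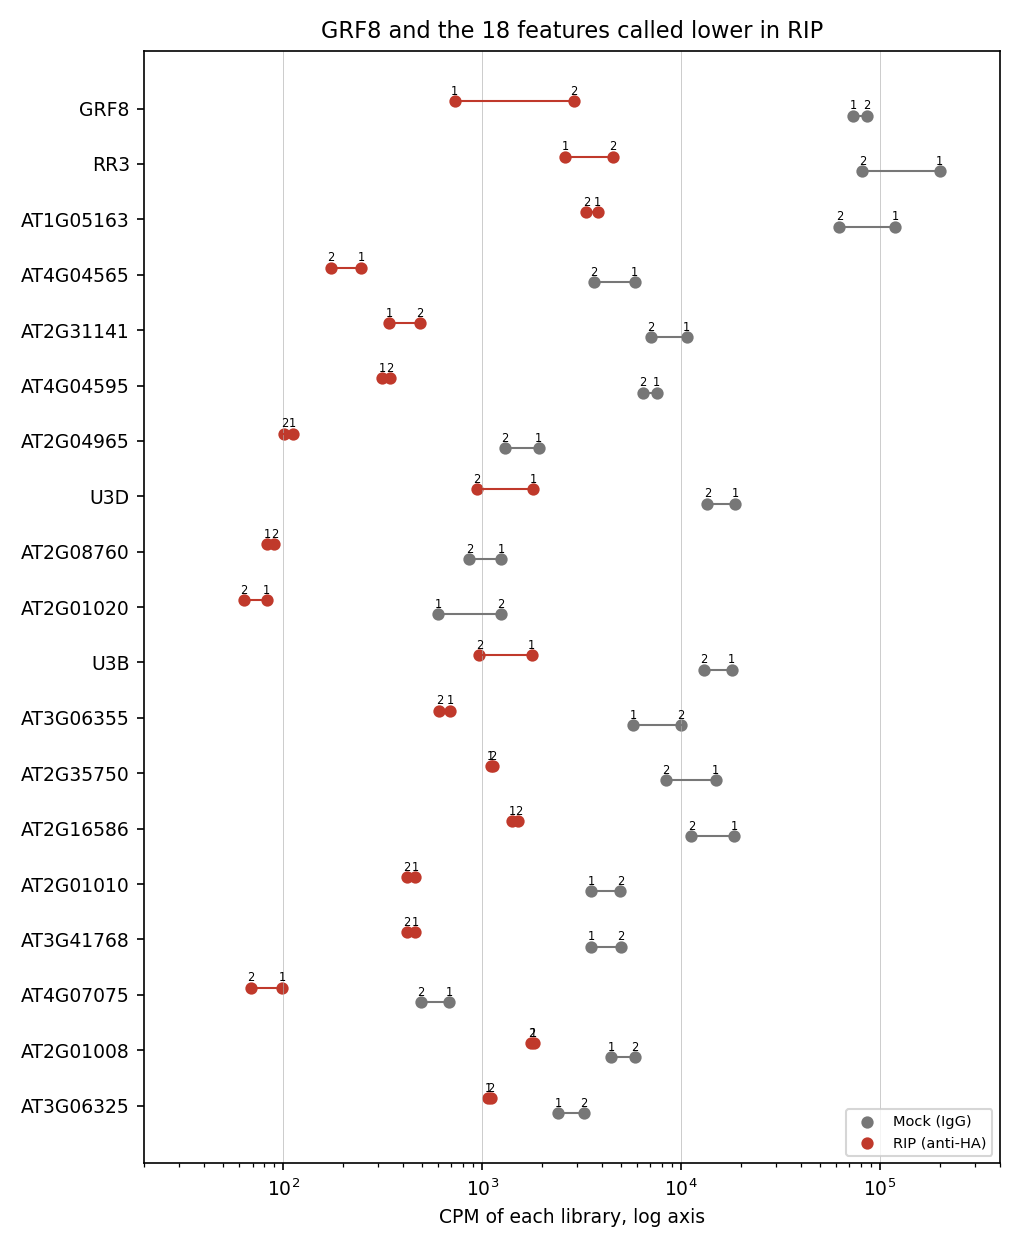
CPM in each library (horizontal log axis) of GRF8 and of the 18 features called lower in RIP, ordered by log2 fold change, with grey points for the 2 Mock libraries, red points for the 2 RIP libraries, and the replicate number above each point. In all 19 features both Mock points lie to the right of both RIP points, with a gap that narrows from GRF8 (43.8-fold) to AT3G06325 (2.6-fold).

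Most snoRNAs that had reads in both Mock libraries lay below Mock. Of these 23 genes, 18 lay below Mock in both RIP libraries and 0 above, with a median log2 ratio of −2.31, and 21 and 20 lay below under the other scalings. Only features with Mock reads can lie below, and of all 1511 detected with IgG 17.2% did. Over all 82 snoRNA genes tested the median log2 fold change was 2.81, against 2.70 over all features tested. Limma called 19 of them higher and 5 lower, where it called 36.6% and 0.12% of all features tested. Of the snoRNA genes compared, 35 were at 0 in both Mock libraries. U3D (AT5G54075) and U3B (AT5G53902) encode the U3 snoRNA needed for early cleavage of the ribosomal RNA precursor. U3D held 3705 and 2092 Mock reads and 2889 and 922 RIP reads, that is 18719 and 13571 CPM against 1807 and 943 CPM, an 11.7-fold higher Mock mean (log2 fold change −3.61 ± 0.41, limma adjusted p = 0.00735). U3B shares 98.0% of 244 bases with it and held 3554 and 2014 against 2838 and 945 reads, so that both may count the same RNA. The 6 features with U3 sequence took 4.65% and 3.25% of the Mock reads and 0.489% and 0.240% of the RIP reads, and 5 of them lay below. PRIN2, a protein needed for plastid gene expression, was one of these through a stretch of 302 bases like U3D (88.1% identity), with 2077 and 934 CPM in Mock and 285 and 122 CPM in RIP.

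A further 3 snoRNA genes passed the test. AT2G04965 had 381 and 201 Mock reads and 178 and 99 RIP reads, which is 1925 and 1304 CPM against 111 and 101 CPM. AT2G08760 had 1243 and 863 CPM against 83.2 and 90.1 CPM, and AT4G07075 had 682 and 493 CPM against 98.8 and 68.6 CPM. Their groups did not overlap, and their Mock means were 15.2-, 12.2- and 7.02-fold higher. AT2G35750, annotated as protein-coding, was lower in RIP too (14955 and 8349 against 1103 and 1129.7 CPM). It overlaps the snoRNA genes AT2G35747 and AT2G08770 on the same strand and aligned with AT2G08760 at 90.3% identity over 227 bases.

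Ribosomal RNA had been depleted before library preparation, and what was left was higher in Mock. The 18S genes AT2G01010 and AT3G41768, which are nearly identical and cannot be told apart by reads, had 698 and 764 and 698 and 765 Mock reads. In RIP they had 734 and 408 and 738 and 410 reads. Their Mock means were 9.68- and 9.64-fold higher in CPM. AT2G01020, named a 5S RNA in the reference although its sequence equals that of the 5.8S gene AT3G41979, had 601 and 1239 CPM against 82.5 and 63.4 CPM. The lncRNA AT3G06355 holds the same 164 bases and was 12.1-fold higher in Mock. The 5 features with rRNA sequence took 1.35% and 2.12% of the Mock reads and 0.172% and 0.156% of the RIP reads, and 4 of them lay below.

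The last 3 of the 18 lie near or resemble rRNA units. AT2G01008 ends 532 bases before the 18S gene AT2G01010, AT3G06325 ends 811 bases before AT3G41768, and both share about 98% of their aligned bases with each other and with AT2G16586. AT2G16586 had 18492 and 11249 CPM in Mock against 1415 and 1518 CPM in RIP. AT2G01008 and AT3G06325 differed less, by 2.88- and 2.6-fold, and their reads may be shared with AT2G16586. AT3G06325 changed sign, to a log2 fold change of 0.68, under quantile normalization.

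Among features below Mock with few RIP reads, the assembled locus XLOC_033646 had 24 and 13 Mock reads and 0 and 1 RIP reads, a pooled ratio of RIP to Mock of 0.00369 with a 95% counting interval of 9.11e-05 to 0.0219. AT4G05185 was 40.2-fold higher in Mock with 12 and 135 Mock reads and 16 and 13 RIP reads, a spread between the Mock libraries of 60.6 to 876 CPM (limma adjusted p = 0.154). The pectin lyase-like gene AT1G19170 had 33 and 14 Mock reads and 14 and 7 RIP reads, and AT3G59500 had 22 and 15 and 12 and 6. Neither passed, with limma adjusted p of 0.0399 and 0.0379. Intervals on reads cover counting error only, since the reads carry no molecular identifiers.

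The single feature detected with IgG that was higher with anti-HA was TCTP (AT3G16640), the translationally controlled tumor protein, a conserved regulator of growth. It had 103 and 104 Mock reads and 5465 and 2633 RIP reads, that is 520.4 and 675 CPM against 3417 and 2694 CPM. Both RIP values lay above both Mock values, at 5.11-fold (log2 fold change 2.35 ± 0.26, limma adjusted p = 0.00689). Without RIP replicate 1 or without RIP replicate 2 it was no longer called, at log2 fold changes of 2.18 and 2.53.

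**Figure D4:**
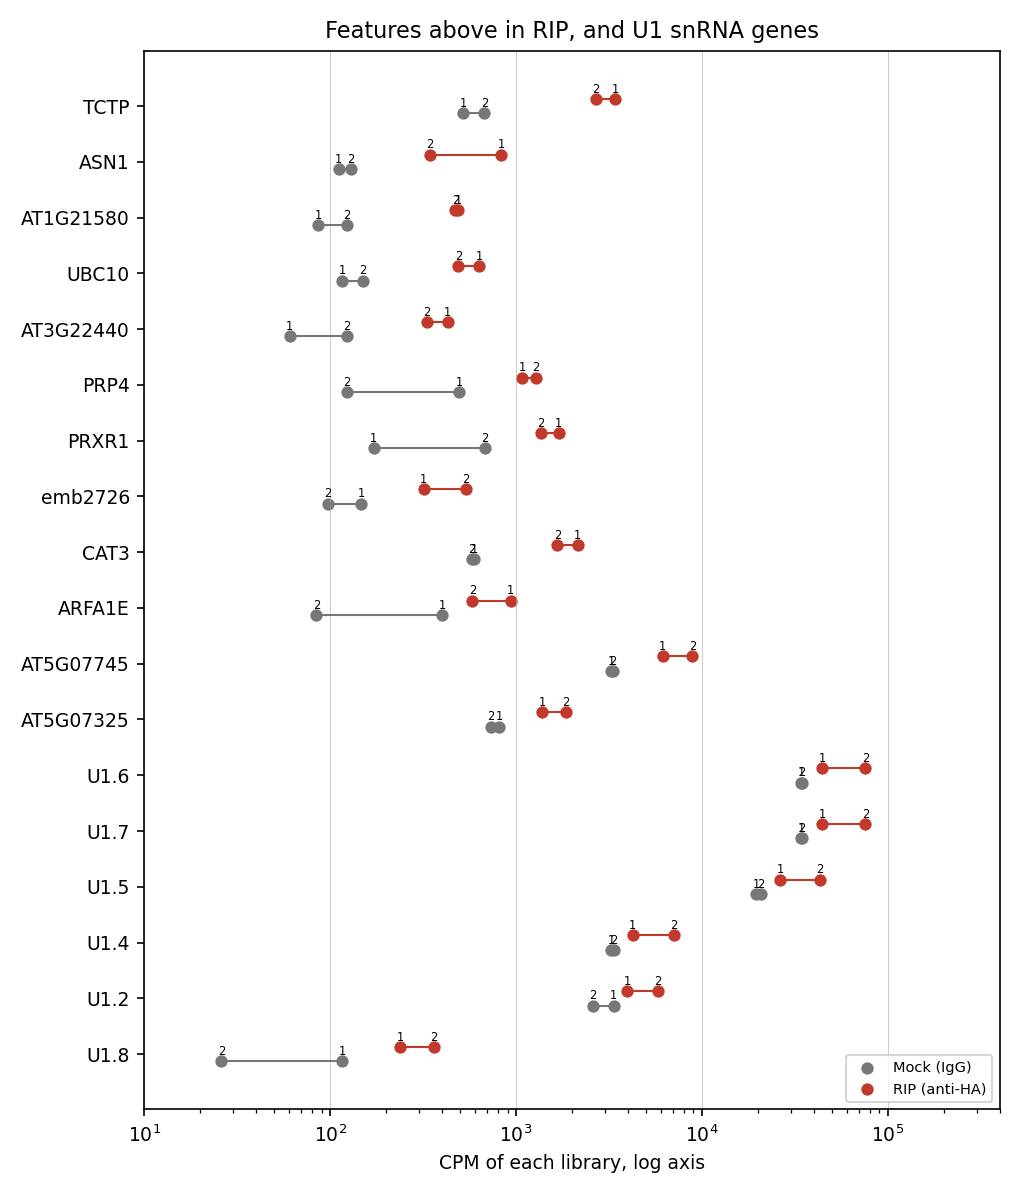
CPM in each library (horizontal log axis) of TCTP, of 9 further features with at least 10 reads in each Mock library and RIP above Mock, of 2 lncRNAs with U1 sequence and of the 6 U1 snRNA genes, with grey points for the 2 Mock libraries, red points for the 2 RIP libraries, and the replicate number above each point. TCTP, at 5.11-fold, is the one called higher, and the U1 genes sit at 1.64- to 4.21-fold as deposited (1 of 6 above Mock outside the 10 largest features).

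With at least 10 reads in each Mock library, the next genes by ratio were named after their values had been seen. ASN1, an asparagine synthetase, had 22 and 20 Mock reads and 1331 and 337 RIP reads, a pooled ratio of 5.43 (95% counting interval 4.0 to 7.56). The RIP libraries differed from each other here, at 832 and 345 CPM. CAT3, a catalase that removes hydrogen peroxide, had 118 and 89 Mock reads and 3434 and 1628 RIP reads, a pooled ratio of 3.34 (2.91 to 3.86). The others were AT1G21580, UBC10 (a ubiquitin-conjugating enzyme), AT3G22440 (a FRIGIDA-like protein), PRP4 (a proline-rich protein), PRXR1 (a peroxidase), emb2726 (of the elongation factor Ts family) and ARFA1E (a small GTPase of vesicle traffic), with pooled ratios between 3.07 and 4.71. None of these 9 passed the test (limma adjusted p of 0.0987 to 0.277).

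Larger ratios rested on 1 to 3 Mock reads in each library. MPPBETA, the beta subunit of the mitochondrial processing peptidase, had 1 and 1 Mock reads and 344 and 182 RIP reads, a pooled ratio of 35.9 with a counting interval of 9.90 to 298. DEG2, a chloroplast protease, had 1 and 1 against 215 and 141 reads, a ratio of 24.3 (6.68 to 202). RAN-1, a GTPase of nuclear transport, had 1 and 2 against 203 and 209 reads, a ratio of 18.8 (6.38 to 91.4). The same held for PHT2;1 (a phosphate transporter), AT3G03940 (a protein kinase), SYP23 (a syntaxin), PSB27 (a photosystem II protein), CAO, AT3G62120 and ARC5, down to a ratio of 13.7 (3.75 to 114) for ARC5. All of these groups were free of overlap, and none passed the test.

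RNAs with U1 sequence held the most reads in RIP. U1.6 and U1.7 had 6747 and 5337 Mock reads each, and 71161 and about 73950 RIP reads, so that their reads were nearly all shared. U1.5 had 3872 and 3210 Mock reads and 42211 and 42278 RIP reads, that is 19563 and 20824 against 26396 and 43263 CPM. All 6 U1 genes detected with IgG lay above Mock as deposited, with a median log2 ratio of 0.80, but 5 of 6 did with median-of-ratios size factors (0.55) and 1 of 6 outside the 10 largest features (0.21). None was called (limma adjusted p of 0.116 to 0.131). U1.2 shares sequence and reads with AT4G23420. The lncRNAs AT5G07745 (642 and 509 Mock reads, 9825 and 8672 RIP reads, 2.29-fold) and AT5G07325 (161 and 113, 2210 and 1808 reads, 2.09-fold) had the same direction, at limma adjusted p of 0.0209 and 0.0254.

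Other snRNAs were thinly covered in Mock. Of 6 genes of U4 RNA, which pairs with U6 before splicing, 3 had reads in both Mock libraries, and these lay below Mock under all 3 scalings. Over all 6 the median log2 fold change was 0.88, against 2.70 over all features tested. Of the 6, 1 outside these 3 was called higher, as were 36.6% of all features tested. U4.6 had 419 and 383 CPM in Mock against 139 and 192 CPM in RIP, U4.8 had 419 and 324 against 133 and 188, and U4.2 had 1419.7 and 1317 against 1114 and 1247. U12 of the minor spliceosome was below too, at 435 and 519 against 235 and 194 CPM, a 2.22-fold higher Mock mean. None of the 4 passed the test (limma adjusted p of 0.0169 to 0.111). U2 RNA pairs with the branch point. Of 11 U2 genes compared, 7 were detected with IgG, of which 1 lay above and 6 overlapped, and 1 without reads in both Mock libraries was called higher. Of 4 U5 genes compared, 2 were detected with IgG and overlapped as deposited. The 6 U6 genes were at 0 in both Mock libraries, where 5 were called higher by limma although none exceeded the 3-read floor described below.

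By kind of RNA, the share of reads was higher in RIP for snRNA, 13.1% and 21.3% against 9.95% and 10.5%. It was lower in RIP for snoRNA (0.694% and 0.324% against 4.67% and 3.39%), for lncRNA (1.88% and 2.03% against 14.0% and 8.64%) and for rRNA (0.10% and 0.0901% against 0.765% and 1.12%). Protein-coding genes took 81.7% and 74.5% of the RIP reads and 66.8% and 72.7% of the Mock reads. These shares follow the largest features of each kind, and copies such as U1.6 and U1.7 each count nearly the same reads. Of 164 lncRNA genes tested, 71 were called higher in RIP by limma and 4 lower, where 36.6% and 0.12% of all features tested were. Of the lncRNA genes compared, 124 were at 0 in both Mock libraries. Without the 10 largest features of each library the snRNA share was 0.821% in RIP and 2.46% in Mock, so its direction turned, and the lncRNA share was 1.28% and 4.15%.

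**Figure D5:**
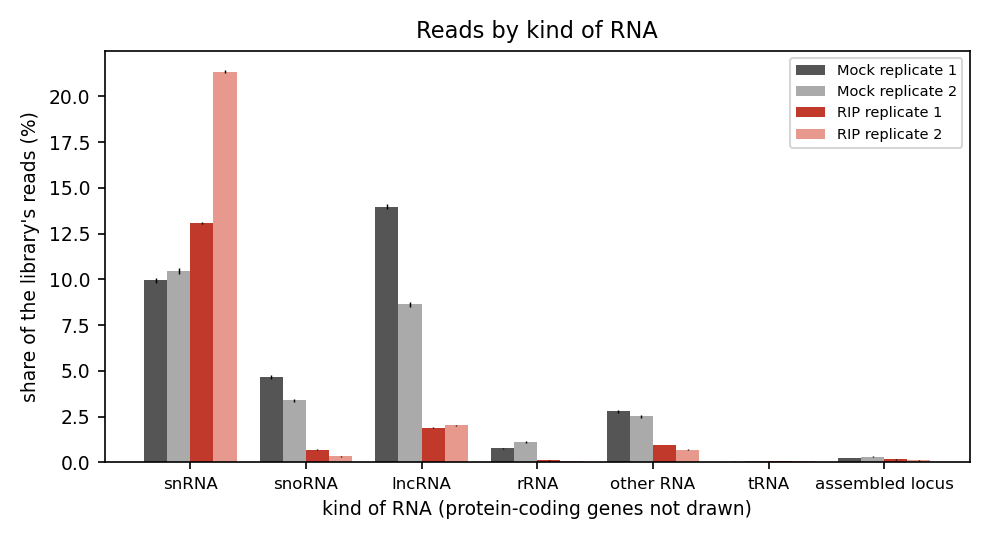
Share of each library's reads in percent (vertical axis) by kind of RNA (horizontal axis) in the 2 Mock libraries (grey) and 2 RIP libraries (red), with 95% Wilson intervals that cover counting error only; protein-coding genes are not drawn. Both RIP bars stand above both Mock bars for snRNA and below them for snoRNA, lncRNA and rRNA. Reads shared by copies such as U1.6 and U1.7 count for each copy.

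Features above and below Mock are described here by kind and level, beside all 1511 detected with IgG. Of these 1511, 1422 were protein-coding, 27 other RNA, 23 snoRNA, 19 snRNA, 13 lncRNA or antisense and 3 rRNA genes. Among the 395 above, 385 were protein-coding, 7 snRNA and 0 snoRNA genes. Among the 260 below, 210 were protein-coding, 18 snoRNA, 16 other RNA, 6 lncRNA or antisense, 4 snRNA and 3 rRNA genes, and 3 were assembled loci. Median Input levels were 154 CPM above and 35.2 CPM below, against 102 CPM over all 1511. Median exon lengths were 2009 and 1753 bases, against 1987 over all, and the median GC content was 42.5% in both.

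Most gene lists had few features detected with IgG, and their counts stand beside 26.1% above and 17.2% below over all 1511. Nuclear photosynthesis genes had 45 of 48 compared features detected with IgG, 9 above and 3 below as deposited. These were 5 and 5 with median-of-ratios size factors and 2 and 9 outside the 10 largest features, so that the direction turned. CAB1, a chlorophyll-binding protein and the largest of them, had 1073 and 2126 Mock reads and 16816 and 11217 RIP reads, or 5421 and 13792 against 10516 and 11478 CPM, so that its groups overlapped. Of 10 heat shock genes detected with IgG, 3 lay above and 1 below as deposited, but 2 and 3 outside the 10 largest features. Of 9 cytosolic ribosomal protein genes, 2 lay above and 2 below, but 0 and 2 outside the 10 largest. Of 5 splicing factors of the SR, U2AF and PTB families, 3 lay above and 0 below, but 1 lay above outside the 10 largest. ATU2AF65A, which binds the polypyrimidine tract, had 12 and 9 Mock reads and 167 and 115 RIP reads. Aux/IAA genes, which repress auxin responses, had 3 detected, which all overlapped as deposited, while 1 lay below under each other scaling. Lipid transfer proteins had 1 above and 1 below, and the single expansin detected overlapped.

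Among WRKY and ERF transcription factors, WRKY33, a regulator of immune responses, had 36 and 4 Mock reads and 604 and 182 RIP reads (182 and 25.9 against 378 and 186 CPM) and lay above as deposited, but overlapped under both other scalings. WRKY6 (29 and 12 against 104 and 33 reads) and WRKY26 (29 and 17 against 36 and 25 reads) lay below. ERF104 had 25 and 11 Mock reads and 305 and 254 RIP reads and lay above, but overlapped outside the 10 largest features, while ERF4 overlapped. The lncRNA AT4G36648 had 1 and 21 Mock reads and 1198 and 998 RIP reads, a pooled ratio of 13.6 (95% counting interval 8.99 to 21.8), and was not called (limma adjusted p = 0.136).

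For features without a Mock read the depth of Mock sets what can be said. Of 8511 such features, 6452 (75.8%) had a mean RIP level above 3 reads over both Mock libraries together, which is 8.52 CPM. This floor assumes independent reads, while features seen only in Mock replicate 1 had a median of 22 reads. It therefore does not bound the Mock level. A floor of 10 reads left 2154. At the RIP share, the median of these features would have given 5.53 reads in both Mock libraries together. Of the 5476 called higher by limma, 935 (17.1%) did not exceed the 3-read floor and 3572 (65.2%) did not exceed 10 reads. A further 4581 features had reads in 1 Mock library, 825 only in replicate 1 (median 22 reads) and 3756 only in replicate 2 (median 7 reads).

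Detection in Mock followed the reads that a feature would have had at its RIP share. Of features for which 3 reads or fewer would have been seen, 13.6% were above 0 in at least 1 Mock library and 1.38% in both. These values were 55.2% and 9.92% for 10 to 30 reads, and 98.8% and 87.5% above 100 reads.

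The strongest RIP signals at 0 in Mock were far above the floor. GUT15, a noncoding RNA gene (AT2G18440), had 840 and 510 RIP reads and was 61.4-fold above the 3-read floor. The RING finger gene AT5G23110 had 861 and 396 RIP reads and was 55.4-fold above this floor. AT5G16110 (726 and 313 reads), AT4G05631 (609 and 325) and the ribosomal protein gene AT3G13580 (349 and 266) were 45.4-, 41.9- and 28.8-fold above it.

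Of the other genes that the study names, FPA, an RNA-binding regulator of flowering, had 146 and 86 RIP reads. Its mean RIP level was 10.5-fold above the 3-read floor, which does not bound its Mock level. On the same measure the SAUR gene AT3G12830 was 6.24-fold above the floor, WRKY18 5.29-fold, WRKY40 5.10-fold, OCT4 4.84-fold and TAS1C 3.67-fold. FLC, a repressor of flowering, and AT5G38005 had 12 and 4 and 13 and 3 RIP reads and were under the floor. CAF1a, a deadenylase that shortens poly(A) tails, had 0 and 3 Mock reads and 108 and 57 RIP reads, a pooled ratio of 7.52 (2.53 to 36.8). MYC2 had 0 and 16 Mock reads against 369 and 192 RIP reads, and RAV2 had 0 and 36 against 763 and 191, where the groups overlapped. The reference gene PP2AA3 had 1 and 0 Mock reads and 70 and 43 RIP reads, a ratio of 15.4 (2.72 to 615). ERF1 (0 and 7 RIP reads), AT5G09475 (8 and 0) and the relative of NSRa, NSRb (AT1G21320, 0 in all 4 libraries), did not meet the rule.

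No SAUR, JAZ, ZAT, CAF1 or TAS gene had reads in both Mock libraries, where 1511 of all 14603 features compared did. Over all features compared, 8511 were at 0 in both, of which 75.8% exceeded the 3-read floor and 25.3% exceeded 10 reads. Of 22 SAUR genes compared, 18 were at 0 in both Mock libraries and 8 of these exceeded the 3-read floor. The counts were 5 of 6 JAZ genes at 0 with 5 above the floor, 3 of 5 ZAT genes with 2 above, 1 of 2 CAF1 genes with 1 above and 4 of 4 TAS genes with 3 above. Of 40 WRKY genes compared, 27 were at 0 in both Mock libraries and 24 of these exceeded 3 reads, but 7 exceeded 10.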

How the data were processed

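RNA of 2 RIP, 2 Mock and 2 Input libraries was rRNA-depleted, prepared with a stranded kit and read from 1 end over 75 bp. Per the study's methods, reads were aligned with STAR and counted by strand with summarizeOverlaps in union mode; the submitters' processing notes name TAIR10. The deposited table, described as counts, holds FPKM values made by the authors, with 1 column per library. FPKM times exon length gave whole multiples of 1 read for 99.1% to 99.3% of annotated features above 0 (tolerance 0.01 reads), from which reads and CPM were recovered. Exon lengths, names and coordinates come from RefSeq TAIR10.1, matched by locus; loci without annotation had lengths inferred from the values, which gave the annotated length for 93.4% of 2000 test genes.

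RIP and Mock were compared with limma 3.58.1 (R 4.3.3; empirical Bayes with a trend) on log2(FPKM + 1) of the 4 libraries. Fold changes on this scale understate the change of low features. The test covered features reaching 1 FPKM in 2 or more of the 4, with Benjamini-Hochberg adjustment over all 14954, and called at an adjusted p under 0.01 and an absolute log2 fold change of at least 1. The script was tested on simulated data. Folds are ratios of mean CPM; pooled ratios have exact 95% counting intervals. Sequences were compared with blastn 2.17.0 (at least 80% identity over 50 bases), and alignments among the called features were read without this limit. Alternatives were all 6 libraries, other pseudocounts, filters, normalizations and thresholds, the replicate block, voom and leaving out each library.

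Named features were the 10 with the largest and the 10 with the smallest ratio among features detected with IgG whose groups did not overlap (at least 10 reads in both libraries of the higher group), the 5 at 0 in Mock with the most RIP reads, the 5 largest of each library, genes the study names and up to 3 of the smallest p in each direction. Members, lists and tests were chosen with earlier results of these data known. The cytosolic ribosomal protein list was narrowed after its first use, to leave out chloroplast proteins. *ASCO* was not matched to an identifier and is not reported.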

Additional observations from a re-analysis of the deposited data

How the results depend on the processing

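The counts of the limma comparison depended on the setting. Features higher in RIP numbered 5480 in the reported fit, 2393 with a filter of 10 FPKM, 2 with quantile normalization and 0 with a pseudocount of 10 FPKM, voom or log2(CPM + 20), the last chosen after seeing the data. At an unadjusted p under 0.05 these last 3 gave 4178, 4898 and 3907. Features lower in RIP, all detected with IgG, numbered 18, and 39 with all 6 libraries, 37 at an adjusted p under 0.05, 1 with quantile normalization and 0 in the same 3 settings. The 1 feature detected with IgG and higher in RIP became 32 with all 6 libraries, 30 at an adjusted p under 0.05, 2 with quantile normalization or the replicate block, and 0 without a filter and in the same 3 settings. The block gave 6084 higher and 24 lower; same-numbered libraries deviated together with a correlation of 0.029, so the numbers were not taken as pairs. Leaving out 1 library gave 5847 to 9267 higher, 3 to 669 lower, and among features detected with IgG 1 to 407 higher and 3 to 280 lower; the lone library is then assumed to vary like the other group. Of 15 alternatives, AT4G04595 was called in 11, RR3 in 9, TCTP in 8 and AT2G01008 in 4, and AT3G06325 reversed to 0.68 with quantile normalization. The cause was not tested.

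Of the features detected with IgG, 209 lay above with at least 3 reads in each Mock library and 153 with at least 10, while scaling outside the 10 largest features gave 238 above and 439 below. Leaving out 1 library gave 473 to 755 above and 315 to 630 below. Without the 10 largest features the snRNA share was 0.821% in RIP (17.2% reported, mean of both libraries) and 2.46% in Mock (10.2%), lncRNA 1.28% (1.96%) and 4.15% (11.3%), snoRNA 1.69% in Mock (4.03%), and protein-coding 94.6% (78.1%) and 82.8% (69.8%). Features at 0 in Mock above the floor numbered 2154 for 10 reads and 222 for 30 reads, a floor chosen after seeing the data. Mock depth limits every ratio: 1 read was worth 5.05 and 6.49 CPM there.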
